A study of Homo sapiens with 12 samples.

Results

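Noncanonical Wnt and planar cell polarity genes were examined in CCD-18Co, an established human colon myofibroblast line. The set comprised 10 genes, taken by their exact symbols from the 21893 gene rows of the expression table: the receptors *ROR1*, *ROR2* and *RYK*, the core polarity genes *PRICKLE1*, *PRICKLE2*, *VANGL1* and *VANGL2*, and the Dishevelled genes *DVL1*, *DVL2* and *DVL3*. Cells were given 100 nM 1,25(OH)2D3 (the active vitamin D metabolite), 100 ng/ml Wnt3A (a canonical Wnt protein), 1,25(OH)2D3 plus Wnt3A, or vehicle. RNA was sequenced after 24 h in 3 libraries per group, 12 in all, and each library of a group came from a separate experiment. All 12 libraries came from 1 cell line, so the spread between them is that between experiments and not between donors.

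Noncanonical Wnt signalling is the branch that acts without β-catenin. Wnt5A-type ligands bind Frizzled receptors together with ROR or RYK coreceptors, and Dishevelled passes the signal to small GTPases, JNK and calcium-dependent kinases that shape the cytoskeleton and movement of the cell. In planar polarity, VANGL and PRICKLE proteins gather on one side of a cell and Frizzled and Dishevelled on the opposite side, and these complexes exclude each other. Dishevelled also serves the canonical, β-catenin branch that Wnt3A activates, and intestinal fibroblasts are a known source of noncanonical Wnt ligands.

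The libraries held 5363668 to 6261100 read equivalents (deposited values divided by the read length of 40 bases), and levels are given as CPM (reads of a gene scaled to a common library size, with TMM factors). The treatments were visible in their known targets. *CYP24A1*, the vitamin D-degrading enzyme, rose with 1,25(OH)2D3 (adjusted p = 9.01e-07, edgeR), and *AXIN2*, a canonical Wnt target, rose by a log2 fold change of 3.17 with Wnt3A (SE 0.20, adjusted p = 6.86e-11). The 8 fibroblast and myofibroblast markers were all detected, with a summed level of 22280 to 25820 CPM per library. That sum holds opposite changes. With 1,25(OH)2D3 over vehicle, *VIM* was lower (log2 fold change -0.53) and *COL1A1* (0.56) and *COL3A1* (0.42) were higher (adjusted p under 0.05, edgeR). The rest of the 8 were not called there. The 5 epithelial markers gave at most 2 reads per library, with *CDX2*, *KRT20* and *VIL1* at 0 throughout. The 4 endothelial markers stood apart in the library of experiment 2 of the vehicle group, with 61 reads of *VWF*, 23 of *CDH5*, 9 of *KDR* and 4 of *PECAM1*; the summed level of the list was 2.585 to 5.842 CPM with 1,25(OH)2D3, 2.494 to 3.468 CPM with Wnt3A, 2.116 to 3.873 CPM with both and 3.652 to 15.52 CPM with vehicle. Without that library, *DVL1* was no longer called with 1,25(OH)2D3 (log2 fold change -0.26, adjusted p = 0.0986), and the other calls of members given below were also made. The 4 smooth muscle markers (nearly all *SMTN*, with *DES* at most 1 read per group) summed to 124.6 to 129.3 CPM with 1,25(OH)2D3, 162.4 to 177.7 CPM with Wnt3A, 125.5 to 153.1 CPM with both and 161.9 to 184.1 CPM with vehicle. The sum was thus lower where *DVL1* was low, which reflects *SMTN*, at 123.4, 166.4, 130.6 and 164.6 CPM on average. *CNN1* averaged 3.65, 4.61, 3.57 and 4.06 CPM and was not called over vehicle. The 4 leukocyte markers (nearly all *CD14*, with *CD3E* at 0) summed to 14.95 to 19.03, 6.754 to 10.31, 9.372 to 13.02 and 8.16 to 11.47 CPM in those groups, and the 2 markers of interstitial cells of Cajal (*KIT* and *ANO1*) to 41.74 to 57.67, 53.7 to 56.07, 61.79 to 67.05 and 31.65 to 37.09 CPM. The last 2 genes did not move together. In the same order of groups, *KIT* averaged 11.7, 39.0, 26.8 and 17.6 CPM, and *ANO1* 35.6, 16.2, 36.9 and 16.7 CPM. The 4 glial and neuronal markers gave at most 5 reads per library. The part of these markers in the results was not tested.

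The members most changed by 1,25(OH)2D3 were *PRICKLE1*, *RYK* and *DVL1*, and their promoters are shown for that reason. The RefSeq windows (GRCh38.p14) run from 250 bases before to 50 after an annotated start, and each matched the GRCh37 sequence of its chromosome once. *PRICKLE1* lay at chr12:42877368-42877667, *RYK* at chr3:133969652-133969951 and *DVL1* at chr1:1284749-1285048, all on the minus strand and printed in gene direction. Capitals mark a match to a half-site of the vitamin D receptor.
PRICKLE1: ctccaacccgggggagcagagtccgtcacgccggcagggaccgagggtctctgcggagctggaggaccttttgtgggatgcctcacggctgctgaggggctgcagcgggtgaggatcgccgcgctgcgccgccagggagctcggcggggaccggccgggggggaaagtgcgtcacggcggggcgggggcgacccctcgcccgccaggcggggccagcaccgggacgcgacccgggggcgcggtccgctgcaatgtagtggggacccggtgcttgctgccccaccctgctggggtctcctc
RYK: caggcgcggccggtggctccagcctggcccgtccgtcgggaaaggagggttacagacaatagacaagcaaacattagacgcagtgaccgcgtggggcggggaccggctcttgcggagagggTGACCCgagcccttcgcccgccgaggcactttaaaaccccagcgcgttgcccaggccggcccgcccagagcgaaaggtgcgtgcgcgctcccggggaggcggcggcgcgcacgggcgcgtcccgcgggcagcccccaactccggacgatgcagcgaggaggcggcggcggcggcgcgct
DVL1: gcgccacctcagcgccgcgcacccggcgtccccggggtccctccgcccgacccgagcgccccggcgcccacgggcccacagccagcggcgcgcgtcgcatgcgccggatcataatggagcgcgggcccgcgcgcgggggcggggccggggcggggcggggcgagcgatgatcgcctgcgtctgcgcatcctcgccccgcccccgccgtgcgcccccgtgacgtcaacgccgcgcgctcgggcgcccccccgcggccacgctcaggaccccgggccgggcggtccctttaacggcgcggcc
The 3 windows were GC-rich, with 75.3% GC for *PRICKLE1*, 73.0% for *RYK* and 82.7% for *DVL1*, against a median of 58.7% over 35116 RefSeq promoters. The half-site AGGTCA, its variant form GGGTCA, the form AGTTCA and the further form GGTTCA were sought on both strands, with overlaps allowed. *RYK* held 1 match, GGGTCA on the opposite strand, starting 129 bases before its start, while *PRICKLE1* and *DVL1* held none. At least 1 such match was present in 38.6% of all promoters, and a direct repeat of these half-sites with a spacing of 3 bases in 0.074% of them and in none of the 12 windows of the 10 members. The TCF/LEF sequence CTTTGAT or its variant form CTTTGTT was in 7.6% of all promoters and in none of the 12 windows. The deposited *PRICKLE1* row (chromosome 12, 42852140 to 42983572) begins 106155 bases upstream of this RefSeq start, so the row covers more than the transcript that starts there.

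The members differed widely in abundance. Per length of the canonical GENCODE transcript, as CPM per kilobase (RPKM), vehicle-treated cells held 20.4 ± 1.7 for *DVL3*, 20.3 ± 1.0 for *PRICKLE2* and 19.0 ± 0.51 for *RYK* (SD, n = 3). *DVL3* overlapped both of the others, and the 3 *RYK* libraries lay below the 3 *PRICKLE2* libraries. *DVL1* followed with 11.95 ± 0.84 and *DVL2* with 11.4 ± 0.86 RPKM, again within their spread, and then *VANGL1* with 8.40 ± 0.16 RPKM. *PRICKLE1* at 3.94 ± 0.64 and *ROR1* at 3.29 ± 0.78 RPKM overlapped, and *ROR2* had 0.33 ± 0.13 RPKM. This order depends on the length used, since with all exons of a gene joined *RYK* had 7.10 RPKM, below *VANGL1* with 8.05 RPKM. *VANGL2* was at the edge of detection, with 1 read in all, in a vehicle library, and 0 reads in the other 11 libraries, which allows up to 0.178 CPM with 1,25(OH)2D3, 0.172 CPM with Wnt3A and 0.168 CPM with both (3 reads over the group, counting error only). *ROR2* and *VANGL2* failed the count filter, so 8 of the 10 members were tested.

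**Figure D1:**
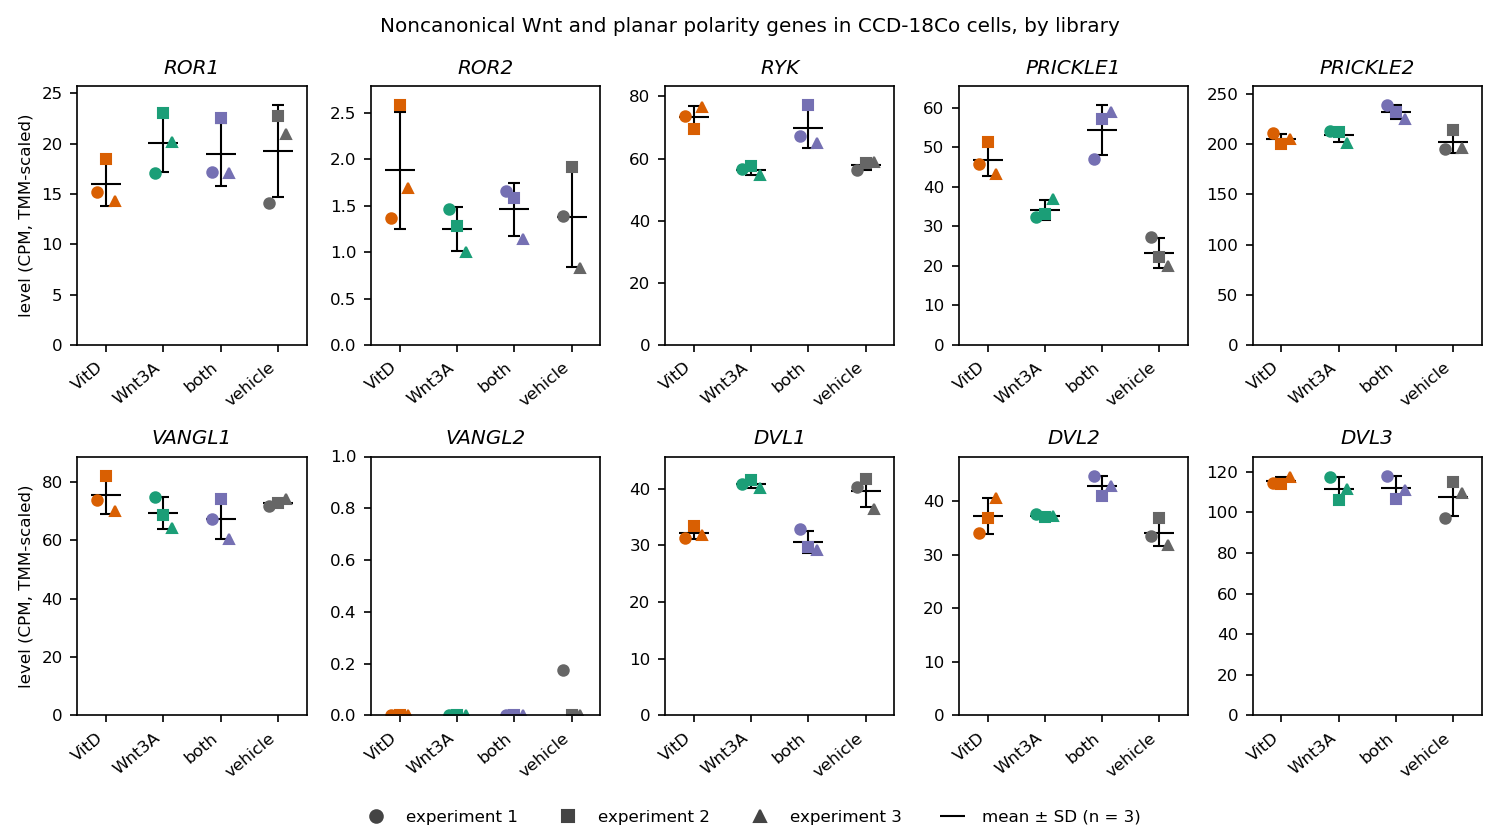
Level in CPM (vertical axis, from 0, own scale per panel) of each of the 10 members in the 4 groups; symbols are the 3 experiments, and the bar and whiskers are mean and SD (n = 3; not drawn for *VANGL2*). *PRICKLE1* was lowest in all 3 vehicle libraries, *RYK* was higher and *DVL1* lower in the 6 libraries with 1,25(OH)2D3, and *VANGL2* had a read in 1 library.

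The comparison of 1,25(OH)2D3 with vehicle asked which members respond to vitamin D alone. *PRICKLE1* and *RYK* rose and *DVL1* fell, so that 2 of 8 tested members were higher and 1 was lower (adjusted p under 0.05 over 12216 tested genes, edgeR quasi-likelihood test), where 8.54% of all tested genes were higher and 6.12% lower. The median log2 fold change of the 8 members was 0.074, beside 0.0011 over all tested genes. In such RNA from whole cultures, fewer cells of a type and less RNA per cell cannot be told apart.

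Wnt3A alone, the test of the canonical ligand, changed *PRICKLE1* among the members. It was higher, as were 4.96% of tested genes, no member was called lower, as 3.33% of tested genes were, and the other 7 tested members did not pass the threshold. The median of the 8 members was 0.049, beside -0.0037 over all tested genes.

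With 1,25(OH)2D3 and Wnt3A together against vehicle, *PRICKLE1*, *RYK*, *DVL2* and *PRICKLE2* were higher and *DVL1* was lower. These were 4 and 1 of 8 tested members, where 13.3% of tested genes were higher and 10.7% lower, and the median of the members was 0.13, beside 0.0017 over all tested genes. The 3 comparisons share the vehicle libraries, so they are not independent of each other. Without the library of experiment 2 of the combined group, 3 members were called: the log2 fold change was then 0.20 for *PRICKLE2* (adjusted p = 0.0578), as with all libraries, and 0.19 for *RYK* (adjusted p = 0.132), against 0.27 with all libraries. With the experiment as a block both passed (adjusted p = 0.00171 for *PRICKLE2* and 0.00276 for *RYK*).

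**Figure D2:**
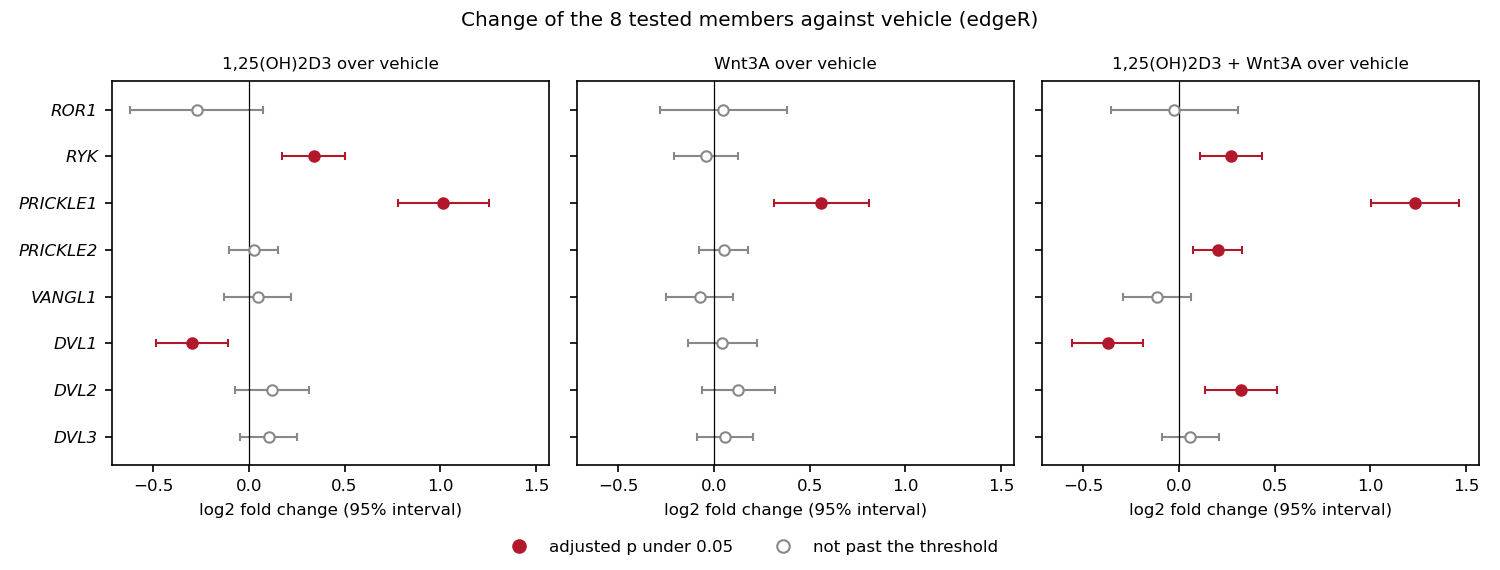
Log2 fold change (horizontal axis) with its 95% interval for the 8 tested members (rows) under 1,25(OH)2D3, Wnt3A and both, each over vehicle; filled points passed an adjusted p of 0.05. *PRICKLE1* was higher in all 3 panels, with estimates of 1.02, 0.56 and 1.23, and *DVL1* and *RYK* passed in the panels with 1,25(OH)2D3.

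Among the receptors, *RYK* (chromosome 3, 133875978 to 133969586), an atypical receptor tyrosine kinase that binds Wnt proteins, was higher wherever 1,25(OH)2D3 was present. Experiments 1, 2 and 3 gave 73.6, 69.4 and 76.7 CPM with 1,25(OH)2D3, 67.3, 77.2 and 65.1 CPM with both agents, 56.6, 57.7 and 54.7 CPM with Wnt3A, and 56.2, 58.6 and 59.1 CPM with vehicle. The 6 libraries with 1,25(OH)2D3 lay above all 6 without it. Groups that do not overlap were common here, for this and the separations given below. Over vehicle, they made up 28.7% of tested genes with 1,25(OH)2D3, 21.8% with Wnt3A and 37.5% with both. The share was 33% with both over Wnt3A and 24.6% with both over 1,25(OH)2D3. Shares for pooled groups, such as 6 libraries against 6, were not computed. The log2 fold change was 0.34 with 1,25(OH)2D3 over vehicle (SE 0.080, 95% interval 0.17 to 0.50, adjusted p = 0.0041) and 0.27 with both over vehicle (SE 0.079, adjusted p = 0.0134). With Wnt3A alone it was -0.042, with a 95% interval of -0.21 to 0.13.

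*ROR1* (chromosome 1, 64239690 to 64644707), a receptor tyrosine kinase-like receptor for Wnt5A, varied more between experiments than between groups. It had 15.2, 18.5 and 14.3 CPM with 1,25(OH)2D3, 17.1, 23.0 and 20.1 CPM with Wnt3A, 17.1, 22.5 and 17.1 CPM with both, and 14.1, 22.7 and 21.0 CPM with vehicle. Experiment 2 was the highest library of each group, and the treated and vehicle groups overlapped in every comparison. Its log2 fold change with 1,25(OH)2D3 over vehicle was -0.27, with a 95% interval of -0.62 to 0.073 (adjusted p = 0.313). With the experiment as a block it was -0.26, with a narrower 95% interval of -0.51 to -0.014, and was not called (adjusted p = 0.121). *ROR2* (chromosome 9, 94484878 to 94712444), its paralogue and also a Wnt5A receptor, gave 31 reads with 1,25(OH)2D3, 22 with Wnt3A, 26 with both and 25 with vehicle, or 1.84, 1.26, 1.46 and 1.38 CPM over the summed libraries of each group. The exact Poisson intervals of these values, 1.25 to 2.61, 0.79 to 1.91, 0.95 to 2.14 and 0.90 to 2.04 CPM, overlapped one another. They hold counting error only, and their overlap is no test of a difference. In the edgeR fit with no count filter, *ROR2* was not called over vehicle. Its log2 fold change there was 0.42 with 1,25(OH)2D3 (SE 0.42, adjusted p = 0.65), -0.15 with Wnt3A (SE 0.45, adjusted p = 0.96) and 0.065 with both (SE 0.44, adjusted p = 0.997).

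*PRICKLE1*, which encodes a LIM-domain protein of the VANGL side of the polarity system, showed the largest change of the tested members in each comparison with vehicle. Its levels were 45.8, 51.3 and 43.2 CPM with 1,25(OH)2D3, 32.4, 33.0 and 36.9 CPM with Wnt3A, 47.0, 57.0 and 58.7 CPM with both, and 27.3, 22.2 and 20.0 CPM with vehicle. All 9 treated libraries were above all 3 vehicle libraries, and the Wnt3A libraries lay between vehicle and the 6 libraries with 1,25(OH)2D3. The log2 fold change over vehicle was 1.02 with 1,25(OH)2D3 (2.02-fold, SE 0.12, 95% interval 0.78 to 1.25, adjusted p = 4.77e-07), where it ranked 108 by p among 12216 genes. With Wnt3A it was 0.56 (1.48-fold, SE 0.12, adjusted p = 0.00254) and with both 1.23 (2.35-fold, SE 0.11, adjusted p = 6.06e-09). *PPHLN1*, a gene on the other strand that overlaps the *PRICKLE1* row, had log2 fold changes of 0.056 with 1,25(OH)2D3, 0.056 with Wnt3A and 0.10 with both, and was not called (adjusted p = 0.69, 0.783 and 0.331). Whether the counting used the strand is not known here.

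*PRICKLE2* (chromosome 3, 64079526 to 64211131), the more abundant paralogue, passed the test with the combination. It had 210.7, 200.4 and 204.9 CPM with 1,25(OH)2D3, 213.5, 211.7 and 201.7 CPM with Wnt3A, 238.9, 232.1 and 225.6 CPM with both, and 195.5, 213.8 and 196.3 CPM with vehicle. The 3 libraries of the combined group were the highest of the 12, and the single-agent groups overlapped vehicle. Its log2 fold change was 0.20 with both over vehicle (SE 0.062, 95% interval 0.074 to 0.33, adjusted p = 0.0181), 0.025 with 1,25(OH)2D3 (-0.10 to 0.15) and 0.050 with Wnt3A (-0.078 to 0.18). The call also ended without the library of experiment 1 or of experiment 3 of the vehicle group (adjusted p = 0.0517 and 0.0586) and without that of experiment 1 of the combined group (0.0639).

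The ratio of *PRICKLE1* to *PRICKLE2* reads was 0.228 ± 0.025 with 1,25(OH)2D3, 0.164 ± 0.017 with Wnt3A, 0.234 ± 0.033 with both and 0.115 ± 0.021 with vehicle (SD, n = 3). No treated library fell below the highest vehicle library, which had 0.140. This ratio, like the Dishevelled shares below, was chosen after the values were seen and carries no test.

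*VANGL1* (chromosome 1, 116184574 to 116240845), a multi-pass membrane protein at the core of the polarity complex, passed the test in no comparison. Its means were 75.2 ± 6.2 CPM with 1,25(OH)2D3, 69.1 ± 5.4 CPM with Wnt3A, 67.2 ± 7.0 CPM with both and 72.8 ± 1.4 CPM with vehicle (SD, n = 3). All treated groups overlapped vehicle, and the log2 fold changes over vehicle were 0.047 (95% interval -0.13 to 0.22), -0.074 (-0.25 to 0.10) and -0.11 (-0.29 to 0.061), in the order of the groups above. The intervals held no fall beyond 0.29 and no rise beyond 0.22. *VANGL2* (chromosome 1, 160370364 to 160398468), its paralogue, gave the single read described above.

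Within the Dishevelled family, the scaffold proteins that both Wnt branches use, the paralogues changed in different directions. *DVL1* (chromosome 1, 1270658 to 1284492) had 31.3, 33.4 and 31.9 CPM with 1,25(OH)2D3, 32.8, 29.7 and 29.1 CPM with both agents, 40.7, 41.4 and 40.1 CPM with Wnt3A, and 40.3, 41.8 and 36.4 CPM with vehicle. The 6 libraries with 1,25(OH)2D3 were below all 6 libraries without it. The log2 fold change over vehicle was -0.30 with 1,25(OH)2D3 (SE 0.091, 95% interval -0.48 to -0.11, adjusted p = 0.0281), -0.37 with both (SE 0.091, adjusted p = 0.00337) and 0.044 with Wnt3A (95% interval -0.14 to 0.22). With 1,25(OH)2D3 alone the size of the change held better than the call: the log2 fold change was -0.30 both with DESeq2 (adjusted p = 0.0982) and in a fit of those 2 groups alone (adjusted p = 0.0635), and -0.30 to -0.26 (adjusted p = 0.0668 to 0.0986) when the vehicle library of experiment 1 or 2, or the 1,25(OH)2D3 library of experiment 1 or 3, was left out. With the experiment as a block it was -0.30 and passed (adjusted p = 0.00952). *TAS1R3*, on the other strand, touches this gene and was too low to be tested.

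*DVL2* (chromosome 17, 7128661 to 7137863) went the other way. It had 34.2, 36.9 and 40.7 CPM with 1,25(OH)2D3, 37.6, 37.1 and 37.2 CPM with Wnt3A, 44.8, 41.0 and 42.8 CPM with both, and 33.6, 36.96 and 31.9 CPM with vehicle. The combined group was above all other libraries. With both agents over vehicle the log2 fold change was 0.32 (SE 0.091, 95% interval 0.14 to 0.51, adjusted p = 0.0102), and with the single agents it was 0.12 (95% interval -0.071 to 0.32) and 0.13 (-0.065 to 0.32) for 1,25(OH)2D3 and for Wnt3A. *DVL3* (chromosome 3, 183873284 to 183891314) averaged 115.3 ± 1.9 CPM with 1,25(OH)2D3, 111.7 ± 5.6 CPM with Wnt3A, 111.9 ± 5.7 CPM with both and 107.3 ± 9.0 CPM with vehicle (SD, n = 3). Its groups overlapped, and its log2 fold changes over vehicle were 0.10, 0.057 and 0.059, none past the threshold.

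The summed level of the Dishevelled genes per length overlapped between the 4 groups, whereas the *DVL1* share did not overlap between the libraries with and without 1,25(OH)2D3. The sum was 44.1 ± 1.5 RPKM with 1,25(OH)2D3, 46.0 ± 1.1 with Wnt3A, 44.8 ± 2.3 with both and 43.7 ± 2.7 with vehicle (SD, n = 3). *DVL1* made up 22.1 ± 0.9% of it with 1,25(OH)2D3 and 20.6 ± 0.6% with both, against 26.8 ± 0.9% with Wnt3A and 27.4 ± 1.6% with vehicle. *DVL2* made up 28.2 ± 1.6%, 32.0 ± 0.4%, 27.1 ± 0.4% and 26.1 ± 0.9% in the same groups, and *DVL3* 49.6 ± 1.2%, 47.4 ± 0.3%, 46.0 ± 1.3% and 46.5 ± 2.4%. The ratio of *DVL1* to *DVL2* reads was 0.868 ± 0.074 with 1,25(OH)2D3 and 0.713 ± 0.028 with both, against 1.09 ± 0.02 with Wnt3A and 1.16 ± 0.04 with vehicle. The ratio was thus under 1 in the 6 libraries with 1,25(OH)2D3 and over 1 in the 6 without it.

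**Figure D3:**
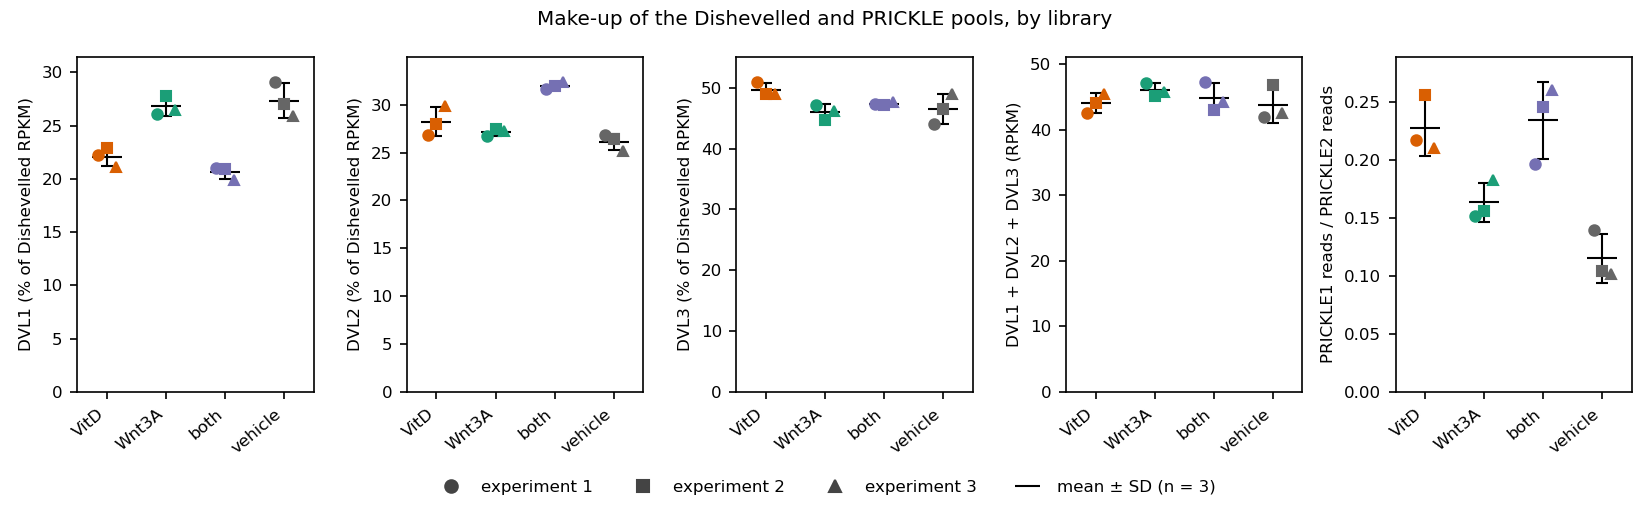
Share of each Dishevelled gene in their summed RPKM (3 panels, percent), the summed RPKM, and the ratio of *PRICKLE1* to *PRICKLE2* reads, each by group with vertical axes from 0; symbols are the 3 experiments, and the bar and whiskers are mean and SD (n = 3). The *DVL1* share was 20.6% to 22.1% on average with 1,25(OH)2D3 and 26.8% to 27.4% without it, while the sum stayed between 43.7 and 46.0 RPKM on average.

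Adding 1,25(OH)2D3 to Wnt3A (both agents against Wnt3A) asked whether vitamin D acts in Wnt3A-treated cells. *PRICKLE1* (log2 fold change 0.67, SE 0.11, adjusted p = 6.89e-05) and *RYK* (0.31, SE 0.080, adjusted p = 0.00864) were higher and *DVL1* (-0.42, SE 0.091, adjusted p = 0.0023) was lower. These were 2 and 1 of 8 tested members, where 7.54% of tested genes were higher and 5.9% lower, with a median of 0.077 for the members and -0.00078 for all tested genes. The same genes passed as with 1,25(OH)2D3 over vehicle. These comparisons share no library, but their libraries come from the same experiments and were fitted together, so they are not independent. Without the combined library of experiment 2, the call of *RYK* was lost (adjusted p = 0.0875). In a fit that takes the experiment as a block, *PRICKLE2* also passed (log2 fold change 0.15, adjusted p = 0.0272, against 0.109 without the block), where 22% of tested genes were called.

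Adding Wnt3A to 1,25(OH)2D3 (both agents against 1,25(OH)2D3) gave 0 called members, where 5.2% of tested genes were higher and 4.03% lower. At an unadjusted p under 0.05, a level that 19% of tested genes reached, there were 3 members, *PRICKLE1* (log2 fold change 0.22, 95% interval 0.0064 to 0.43), *DVL2* (0.20, 0.015 to 0.39) and *PRICKLE2* (0.18, 0.050 to 0.30), and DESeq2 also called 0. *PRICKLE2* passed with the experiment as a block (log2 fold change 0.18, adjusted p = 0.0123), where 14.8% of tested genes were called, and with library totals in place of TMM factors (0.20, adjusted p = 0.0392).

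The interaction set the log2 change with both agents against that expected if the changes with each agent were added. It was called for 0 of the 8 members and for 0% of tested genes, with 354 genes (2.9%) at an unadjusted p under 0.05 and 0 called by DESeq2. *PRICKLE1* was the 1 member at an unadjusted p under 0.05. Its estimate was -0.34 (SE 0.16, 95% interval -0.67 to -0.017, edgeR adjusted p = 1.0), a combined change smaller than 1.02 and 0.56 added together. For the other 7 members the interval included 0, from -0.053 to 0.31 for *PRICKLE2*, the narrowest, to -0.28 to 0.68 for *ROR1*, the widest.

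**Figure D4:**
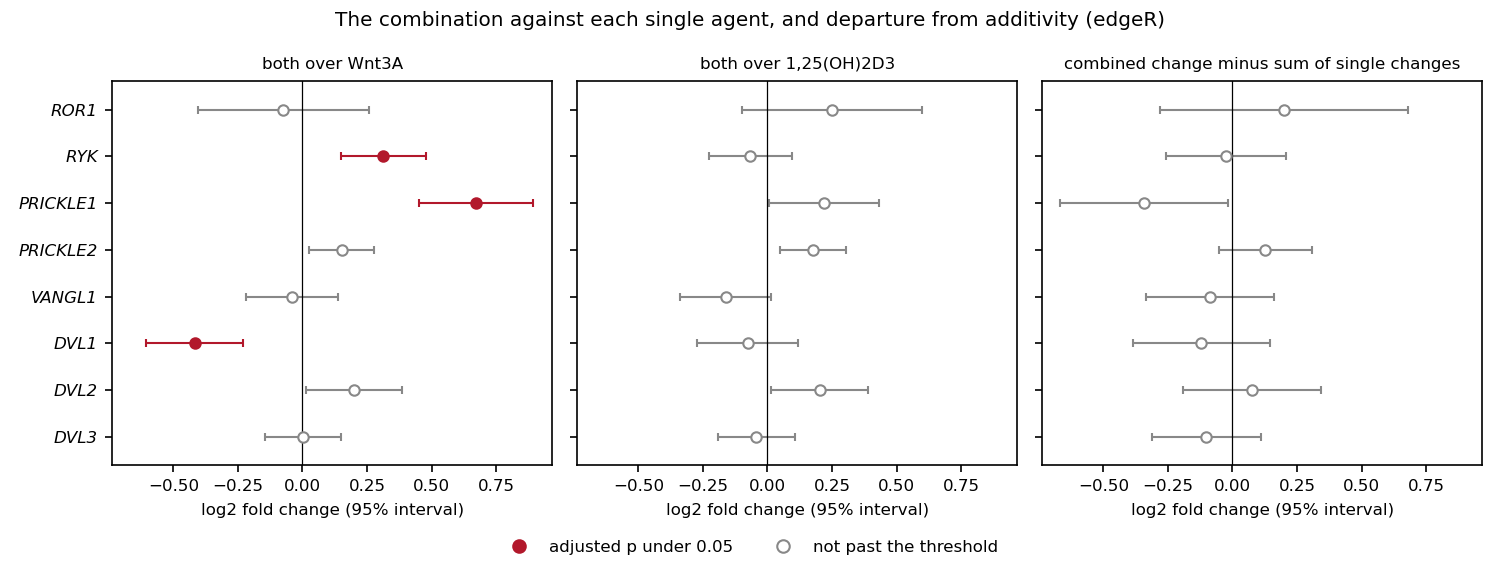
Log2 fold change (horizontal axis) with its 95% interval for the 8 tested members (rows) with both agents over Wnt3A, with both over 1,25(OH)2D3, and for the interaction; filled points passed an adjusted p of 0.05. *PRICKLE1* (0.67), *RYK* (0.31) and *DVL1* (-0.42) passed over Wnt3A, and no member passed in the other panels.

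The genes whose levels followed the changed members most closely were found by the correlation of log2 CPM over the 12 libraries, which share their treatments, so these values are descriptions. For *PRICKLE1* they were *OSR1* (r = 0.96), *NCRNA00120* (0.96) and *LBH* (0.95). For *RYK* they were *MCF2* (0.96), *F11R* (0.96) and *VDR* (0.96), the vitamin D receptor itself. *DVL1* was followed by *IMPDH2* (0.97), *PPP1R14B* (0.96) and *LMNA* (0.96), *DVL2* by *THOC5* (0.90), *YTHDF2* (0.88) and *THAP10* (0.88), and *PRICKLE2* by *HMGCS1* (0.91), *VCAM1* (0.89) and *CDC25C* (0.87).

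Around these members, 59 further genes of the same pathways were listed, and 47 passed the count filter. With 1,25(OH)2D3 over vehicle, 4 were higher and 1 was lower, where 8.54% and 6.12% of all tested genes were. With Wnt3A over vehicle the counts were 4 and 1, beside 4.96% and 3.33% of all tested genes, and with both over vehicle 8 and 7, beside 13.3% and 10.7%. With both over Wnt3A they were 4 and 1, beside 7.54% and 5.9%, and with both over 1,25(OH)2D3 4 and 3, beside 5.2% and 4.03%. In total 17 of the 47 passed in at least 1 of these, as did 31.9% of all tested genes. With the experiment as a block, no gene of the lists lost a call and further ones passed. The counts were then 6 higher and 4 lower with 1,25(OH)2D3 over vehicle (24.2% of all tested genes called in either direction), 4 and 1 with Wnt3A over vehicle (13.5%), 9 and 10 with both over vehicle (33.4%), 4 and 8 with both over Wnt3A (22%), and 5 and 3 with both over 1,25(OH)2D3 (14.8%).

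Of the 5 ligands and secreted cofactors, 3 were tested and *WNT5A*, the main noncanonical ligand, passed. It had 454, 425.1 and 478.1 CPM with 1,25(OH)2D3, 600.9, 540.7 and 582.7 CPM with Wnt3A, 689.5, 680.3 and 746 CPM with both, and 466.2, 433.9 and 508 CPM with vehicle. Every library with Wnt3A was above every library without it. The log2 fold change was 0.29 with Wnt3A over vehicle (SE 0.070, adjusted p = 0.00662), 0.59 with both over vehicle (SE 0.070, adjusted p = 4.78e-07), and 0.29 with both over Wnt3A (adjusted p = 0.00441). With the experiment as a block, *WNT5A* was the only one of the 47 genes called for the interaction, where 0.147% of tested genes were called. Its estimate was 0.35, a combined change larger than the single changes added (adjusted p = 0.00502, against 0.9998 without the block). The secreted cofactor *CTHRC1* passed with the block with 1,25(OH)2D3 over vehicle (-0.68, adjusted p = 0.0375, against 0.0572 without it).

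Of the Frizzled genes linked to polarity, 3 of 4 were tested and *FZD7*, a Wnt receptor, was lower with both over vehicle (log2 fold change -0.28, adjusted p = 0.00716). *FZD2*, another Frizzled, passed with the experiment as a block, with -0.17 for 1,25(OH)2D3 over vehicle (adjusted p = 0.04, against 0.0917 without the block) and -0.19 for both over Wnt3A (adjusted p = 0.0223, against 0.0632). Among 7 tested core polarity genes outside the 10 members, *PTK7*, a pseudokinase coreceptor, was higher with both over vehicle (0.26, adjusted p = 0.00708), and the scaffold gene *SCRIB* was lower with both over Wnt3A with the block (-0.28, adjusted p = 0.0118, against 0.0634 without it). Of 10 tested effectors, *DAAM2*, a formin that binds Dishevelled, was higher with 1,25(OH)2D3 (0.37, adjusted p = 0.00614) and with both (0.56, adjusted p = 4.18e-05) over vehicle, though its row overlaps that of *MOCS1* on the other strand. *RHOU*, a small GTPase, had 9.56, 10.9 and 8.1 CPM with 1,25(OH)2D3, 3.75, 2.92 and 4.32 CPM with Wnt3A, 9.96, 7.94 and 7.49 CPM with both, and 6.26, 4.48 and 5.32 CPM with vehicle. It was higher in all libraries with 1,25(OH)2D3 than in any without it (log2 fold change 0.83 with 1,25(OH)2D3 and 0.66 with both over vehicle, adjusted p = 0.00385 and 0.0161, and 1.19 with both over Wnt3A, adjusted p = 0.000322). *ROCK2*, a serine/threonine kinase that acts on the actin cytoskeleton, was higher with 1,25(OH)2D3 over vehicle (0.27, adjusted p = 0.0102). With both over vehicle it was also higher, close to the threshold (0.19, adjusted p = 0.0496). *RAC1*, a GTPase of the JNK arm, was lower with both over vehicle (-0.26, adjusted p = 0.00527). With the block *RAC1* was also lower with 1,25(OH)2D3 over vehicle (-0.15, adjusted p = 0.0369, against 0.159 without it) and with both over Wnt3A (-0.18, adjusted p = 0.00948, against 0.0795).

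Of the Fat and Dachsous genes, 4 of 7 were tested. *FJX1*, related to a Drosophila kinase that modifies these cadherins, was lower with 1,25(OH)2D3 (-0.56, adjusted p = 0.00051) and with both (-0.43, adjusted p = 0.003) over vehicle, and the cadherin *DCHS1* was lower with both (-0.78, adjusted p = 0.00396). In the JNK and calcium arms, 13 of 14 were tested. *CAMK2D*, a calcium/calmodulin-dependent kinase, was higher with Wnt3A over vehicle (0.35, adjusted p = 0.000398), and with both agents over vehicle its paralogue *CAMK2A* (-0.83, adjusted p = 0.00235) and the JNK gene *MAPK10* (-0.73, adjusted p = 0.000561) were lower and the JNK gene *MAPK8* was higher (0.46, adjusted p = 0.0141). With the block, *NFATC3* was higher with 1,25(OH)2D3 over vehicle (0.29, adjusted p = 0.0121), *CAMK2D* was higher (0.17, adjusted p = 0.0169) and *NFATC1* (-0.40, adjusted p = 0.0411) and *PRKCA* (-0.20, adjusted p = 0.0161) were lower with both over vehicle, and *MAPK8* was higher with both over 1,25(OH)2D3 (0.37, adjusted p = 0.0146). *NFATC1* was also lower with both over Wnt3A, and there it passed without the block (-0.50, adjusted p = 0.0308, edgeR). With both over Wnt3A the block added *CAMK2A* (-0.59, adjusted p = 0.0156), *CAMK2D* (-0.18, adjusted p = 0.0131), *MAPK10* (-0.41, adjusted p = 0.0378) and, of the Fat and Dachsous genes, *FJX1* (-0.30, adjusted p = 0.0331), all lower.

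The largest changes outside the members were among the Dishevelled-binding regulators, of which 7 of 10 were tested. *NKD2*, which binds Dishevelled and is induced by Wnt signalling, had 29.5, 32.7 and 27.1 CPM with 1,25(OH)2D3, 42.7, 47.6 and 29.4 CPM with Wnt3A, 74.2, 66.4 and 60.9 CPM with both, and 13.6, 17.3 and 10.48 CPM with vehicle. The vehicle libraries were the lowest and the combined libraries the highest, and the log2 fold change over vehicle was 1.11, 1.53 and 2.28 with 1,25(OH)2D3, Wnt3A and both (adjusted p = 0.000882, 4.37e-05 and 6.63e-08). *NKD1*, its paralogue, gave 7 reads in all with 1,25(OH)2D3, 29 with Wnt3A and 37 with both, against 1 with vehicle, and was called with Wnt3A (adjusted p = 0.000299) and with both (adjusted p = 2.08e-05). *DACT1*, another Dishevelled-binding regulator, was lower with Wnt3A, at 53.1, 58.2 and 51.4 CPM, and with both, at 61.8, 59.1 and 62.0 CPM, than with vehicle, at 78.9, 77.3 and 80.3 CPM (log2 fold change -0.54, adjusted p = 5.8e-05, and -0.37, adjusted p = 0.00128). With 1,25(OH)2D3 over vehicle it passed with the block (0.22, adjusted p = 0.013, against 0.0563 without it).

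**Figure D5:**
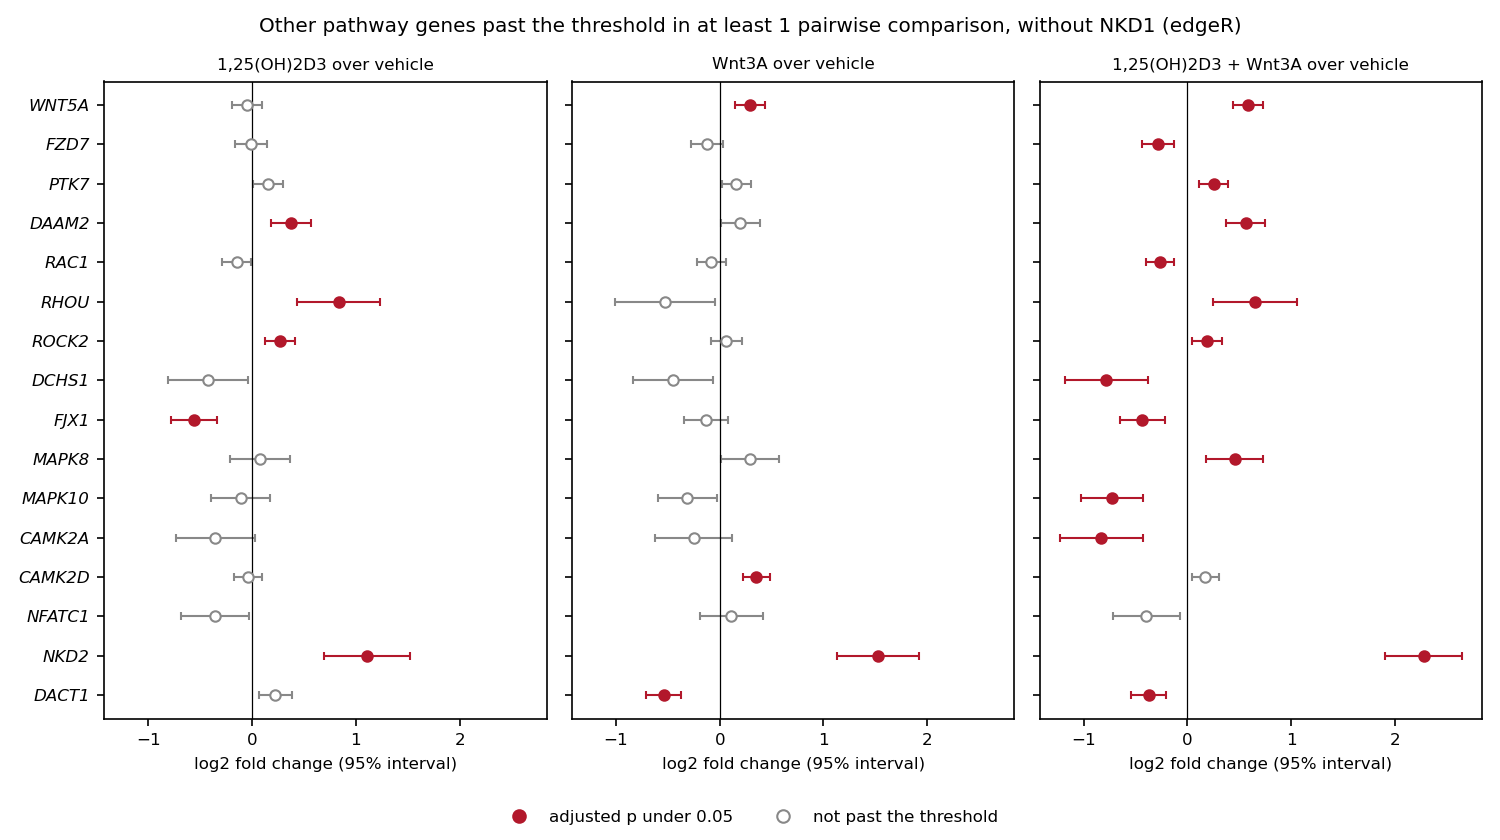
Log2 fold change (horizontal axis) with its 95% interval for 16 of the 17 other pathway genes past the threshold in at least 1 pairwise comparison (rows), under 1,25(OH)2D3, Wnt3A and both, each over vehicle; filled points passed an adjusted p of 0.05 in that panel, and *NKD1* is left out because vehicle held 1 read. *NKD2* was the highest in each panel (1.11, 1.53 and 2.28), and *DACT1* was lower in the panels with Wnt3A (-0.54 and -0.37).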

How the data were processed

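RNA was measured in 12 libraries of CCD-18Co cells, 3 per group. The authors made stranded libraries and sequenced 40 bases, with alignment to GRCh37/hg19 in CASAVA 1.8. How reads were summed per gene (program, annotation, use of strand) is not given in the sources read here. The deposited values are whole-number counts per gene, not normalized. In each library 78.2% to 80.9% of values from 1 to 400 were multiples of 40, so they were read as aligned bases, divided by 40 and rounded.

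Tests used R 4.3.3 and edgeR 4.0.16: filterByExpr (minimum count 10; 12216 of 21893 genes), TMM factors, a robust quasi-likelihood fit of all 12 libraries by group, Benjamini-Hochberg adjustment over all tested genes and a threshold of 0.05. Standard errors were derived from the F statistics. The code was tested on simulated data. DESeq2 1.42.0, other scaling, no filter, undivided values, the compared groups alone, a replicate block and each library left out were alternatives. The labels hold a bare number per library. It was read as the number of the experiment, since the study numbers its independent experiments, and was taken to pair the samples. Residuals of the 18 same-numbered library pairs correlated at 0.238 to 0.538 and those of the 36 others at -0.419 to 0.0146 over 6108 genes.

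The members, gene lists and tests were chosen with earlier results of these data known, including result tables of the study that list *PRICKLE1*, *RYK*, *DVL2* and *PRICKLE2*, so these calls are not independent evidence. Named pathway genes are, per list, up to 4 with the smallest p among those called in a pairwise comparison. *NFATC1* and the genes named for a call with the block alone were chosen after their values were seen. For each called member, the 3 tested genes with the highest correlation are named. Promoters and RPKM lengths came from RefSeq (GRCh38.p14) and GENCODE on GRCh37, and all 10 members matched a RefSeq promoter by symbol.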

Additional observations from a re-analysis of the deposited data

How the results depend on the processing

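Of 904 recomputed log2 fold changes of single members, 865 kept their direction and their side of the threshold. None of the 228 that belong to the 12 called results reversed, and 12 lost the call, those of *DVL1* with 1,25(OH)2D3, of *PRICKLE2* and *RYK* with both over vehicle, and of *RYK* with both over Wnt3A; 3 gained it, all of *PRICKLE2*. Adding Wnt3A to 1,25(OH)2D3 gave 1 called member (*PRICKLE2*) with library totals and 1 with the replicate block, against 0, and the replicate block changed no other call of a member but that of *PRICKLE2* with both over Wnt3A. The cause was not tested. Leaving out single libraries gave 3 to 5 called members with both over vehicle. With no count filter, 9 genes were called for the interaction, and with the block 18, none of them a member. Over all tested genes, the block called 2959, against 1791 without it, with 1,25(OH)2D3, 1655, against 1013, with Wnt3A, 2685, against 1642, with both over Wnt3A, and 1812, against 1127, with both over 1,25(OH)2D3.

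The remaining reversals were in 12 results not past the threshold. *DVL3* with both over Wnt3A was -0.0094 with library totals and -0.025 to 0.052 without single libraries. In such omissions, with 1,25(OH)2D3 over vehicle *PRICKLE2* ranged over -0.0068 to 0.058 and *VANGL1* over -0.019 to 0.089. With Wnt3A over vehicle the ranges were -0.13 to 0.18 for *ROR1*, -0.018 to 0.081 for *DVL1* and -0.0067 to 0.10 for *DVL3*, and with both over vehicle -0.20 to 0.11 for *ROR1* and -0.0055 to 0.11 for *DVL3*. With both over Wnt3A they were -0.22 to 0.041 for *ROR1* and -0.11 to 0.047 for *VANGL1*, and for the interaction -0.092 to 0.040 for *RYK* and -0.15 to 0.0029 for *VANGL1*. At 5363668 to 6261100 read equivalents per library, depth limits *ROR2* and *VANGL2*, which failed the count filter of the main fit, and *NKD1*.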
